A study of Mus musculus with 4 samples.

Results

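The 10 genes described here encode 9 small leucine-rich proteoglycans (decorin, biglycan, asporin, lumican, fibromodulin, PRELP, osteomodulin, osteoglycin and podocan) and the large proteoglycan versican. They were chosen by name, as Dcn, Bgn, Aspn, Lum, Fmod, Prelp, Omd, Ogn, Podn and Vcan, and are 10 of 17466 genes with a named probe on the array. Their 15 probes are all those listed under a mouse RefSeq transcript of these genes. All 15 were well above background on each of the 4 arrays, so no member was lost to the filter on dim probes. The cells were mouse embryonic fibroblasts (MEFs), connective tissue cells that can be passaged only for a limited time. Cells at passage 7, where replicative senescence (a lasting growth arrest) set in, were set against growing cells at passage 2, and each passage was hybridised to 2 single-colour Agilent arrays. Both groups were grown in DMEM with fetal bovine serum and penicillin/streptomycin. Strain, genotype and embryo age are not given in the sources used here. Per the labels' protocols, RNA from 3 cultures was pooled for the expression measurement. The 2 arrays of a passage may then be technical repeats, in which case p-values measure only the spread between arrays.

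Small leucine-rich proteoglycans are secreted proteins built from tandem leucine-rich repeats, and most carry chondroitin, dermatan or keratan sulfate chains. They bind collagen fibrils, govern how the fibrils assemble, and several bind growth factors such as TGF-beta. Versican is a hyalectan, a large proteoglycan that binds hyaluronan at one end and carries many chondroitin sulfate chains. Fibroblasts of connective tissue make both kinds. Several of the small ones lie side by side in the genome.

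Promoter sequence from RefSeq (build GRCm38.p6) was at hand for 8 of the 10 genes. The 4 stretches printed here are the 250 bases before the transcription start of 4 genes whose signal differed between the passages by the rule given further on. They include the neighbours Fmod and Prelp, which moved in opposite directions by that rule, though the call of Prelp depended on the settings. Each reads 5′ to 3′ on the strand of its gene. Vcan lies at chr13:89742513-89742762 on the minus strand and Fmod at chr1:134037004-134037253 on the plus strand. Prelp lies at chr1:133921402-133921651 on the minus strand and Omd at chr13:49582212-49582461 on the plus strand. Capitals mark matches, on either strand, to the motif letters of the TATA box (TATAAA), of the CCAAT box as it is named, of the GC box (GGGCGG), of AP-1 sites (TGANTCA) or of TEAD sites (GGAATG).
Vcan: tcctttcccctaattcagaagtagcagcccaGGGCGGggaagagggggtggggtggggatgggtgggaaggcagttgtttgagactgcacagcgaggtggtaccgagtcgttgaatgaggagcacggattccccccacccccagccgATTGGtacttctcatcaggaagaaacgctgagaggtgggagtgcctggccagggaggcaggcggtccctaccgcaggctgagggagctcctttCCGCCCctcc
Fmod: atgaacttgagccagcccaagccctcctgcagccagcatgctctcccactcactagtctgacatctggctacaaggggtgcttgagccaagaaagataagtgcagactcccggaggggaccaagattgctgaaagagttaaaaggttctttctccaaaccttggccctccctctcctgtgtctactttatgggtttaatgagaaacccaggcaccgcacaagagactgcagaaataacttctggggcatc
Prelp: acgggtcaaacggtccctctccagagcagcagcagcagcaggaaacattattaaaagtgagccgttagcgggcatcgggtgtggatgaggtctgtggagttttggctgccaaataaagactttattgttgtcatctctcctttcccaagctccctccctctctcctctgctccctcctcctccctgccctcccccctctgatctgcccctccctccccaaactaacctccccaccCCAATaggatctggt
Omd: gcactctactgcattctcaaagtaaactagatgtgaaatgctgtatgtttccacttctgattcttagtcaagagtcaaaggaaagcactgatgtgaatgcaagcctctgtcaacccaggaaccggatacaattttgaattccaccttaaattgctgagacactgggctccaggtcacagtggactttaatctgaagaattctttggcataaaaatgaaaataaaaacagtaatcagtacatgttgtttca
The Vcan stretch held 2 matches to GGGCGG and 1 to CCAAT. The Prelp stretch held 1 match to CCAAT, at position -15 from the start, and those of Fmod and Omd held no match to any of the 5 motifs. Of 32851 promoters cut to the same length, 12.4% held TATAAA, 33.8% CCAAT, 32.7% GGGCGG, 6.75% TGANTCA and 12.6% GGAATG. Podn has 2 promoters in the table, so the members have 9. TATAAA occurred in 2 of the 9 (Aspn and Ogn), CCAAT in 3, GGGCGG in 3, GGAATG in 1 (Ogn) and TGANTCA in 0. No motif overlapped another in the printed stretches. The GC content of the printed stretches was 62.4% for Vcan, 51.2% for Fmod, 55.6% for Prelp and 38.4% for Omd, beside a median of 52.4% over all promoters. A match describes letters only.

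At passage 7, lumican, versican, fibromodulin and osteomodulin RNA fell and PRELP RNA rose with the scaling used here. The calls of osteomodulin and PRELP depended on the settings. The falls were 8.0-fold for Lum, 5.20-fold for Vcan, 2.58-fold for Fmod and 2.26-fold for Omd, and the rise of Prelp was 2.16-fold. Dcn, Bgn, Aspn, Ogn and Podn were not called. A gene was called at an adjusted p under 0.05 (limma, Benjamini-Hochberg over all 13847 genes tested) with a change of at least 2-fold. By this rule 5 of the 10 members were called, and 19.4% of all genes. Lower at passage 7 were 4 members and 9.42% of all genes, and higher was 1 member and 9.99% of all genes. With no minimum fold, 6 members passed, Ogn being the sixth, against 25.3% of all genes. The median change of the members was -0.66 on the log2 scale, beside 0.20 for all genes tested. Negative changes were found for 7 of the 10 members and for 5455 of the 13847 genes. The arrays of the 2 passages did not overlap for any of the 10 members, each read at its brightest probe, and this held for 68.5% of all genes. In bulk RNA, fewer cells that express a gene and less of its RNA per cell cannot be told apart. With either passage 7 array left out, Lum and Vcan passed and Fmod, Omd and Prelp did not.

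**Figure D1:**
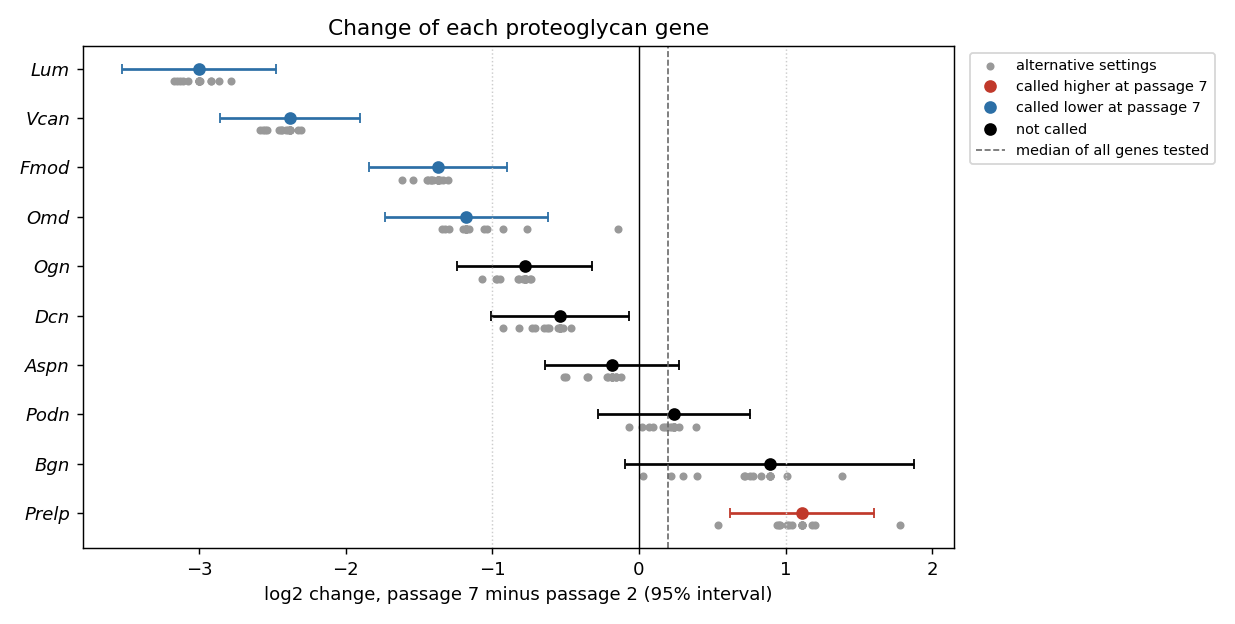
Log2 change, passage 7 minus passage 2, of the brightest probe of each gene with its 95% interval from limma (large points: blue, called lower; red, called higher; black, not called), and the same value under 16 alternative settings (grey points). The dashed line is the median of all genes tested, 0.20, and the dotted lines mark 2-fold. Lum at -3.0 and Vcan at -2.38 lie farthest from it, and the grey points of Bgn spread from 0.03 to 1.39.

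The arrays differed in brightness. Passage 7 arrays had 75th percentiles of 964 and 402 in processed signal, and passage 2 arrays of 1024 and 1404. The share of spots well above background ran from 65.8% to 72.7%, and 0 spots were saturated. Normalised values, as used from here on, are processed signals divided by the 75th percentile of their array, in log2. The median change of all genes was 0.20 with this scaling. It was 0.02 after quantile normalisation and 0.03 after median scaling, while the authors' value table gave -0.06. Relative to the median of all genes, Lum changed by -3.20, Vcan by -2.58, Fmod by -1.57, Omd by -1.38 and Prelp by 0.91. The arrays lay at different positions on 1 slide and were read in 1 scan, so the effects of position and of passage cannot be told apart. Of 10 fibroblast markers tested, 10 were well above background on all 4 arrays, among them Col1a1, Col1a2 and Col3a1. Of these 10, 1 fell (Pdgfra, a receptor of mesenchymal cells, log2 change -2.54) and 0 rose in limma, where 4 were higher and 3 lower at an unadjusted p under 0.05. Of all 13847 genes tested, 5763 had an unadjusted p under 0.05, in either direction.

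Lumican is a class II member with keratan sulfate chains that spaces the collagen fibrils of cornea and skin. The brighter of its 2 probes had processed signals of 604 and 304 on the passage 7 arrays, against 5336 and 8158 on the passage 2 arrays. Normalised, these were -0.67 and -0.41 at passage 7, against 2.38 and 2.54 at passage 2. Both passage 7 arrays lay far below both passage 2 arrays. Lum fell by 3.0 ± 0.20 on the log2 scale (SE; 95% interval -3.52 to -2.48; adjusted p = 0.0051, limma). The other probe read -1.84 and -1.73 at passage 7, against 1.06 and 1.36 at passage 2, a change of -3.0 ± 0.21. Both probes showed the same gap between the passages. Counted from the most negative change, Lum stood at place 97 of the 13847 genes tested.

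Versican, the large hyaluronan-binding proteoglycan of provisional and embryonic matrix, had processed signals of 1502 and 678 at passage 7, against 8188 and 12472 at passage 2. Its normalised values were 0.64 and 0.75 at passage 7 and 3.00 and 3.15 at passage 2, with a wide gap between the passages. Vcan fell by 2.38 ± 0.18 on the log2 scale (95% interval -2.86 to -1.90; adjusted p = 0.0054, limma). Its other probe gave -0.11 and -0.23 at passage 7, against 2.31 and 2.35 at passage 2, a change of -2.50. RefSeq lists 5 curated Vcan transcripts, and both probes are listed under 1 of them, so which splice forms the change covers was not tested. Vcan stood at place 259 from the most negative change.

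Fibromodulin, a class II member that regulates collagen crosslinking and fibril thickness in tendon, had 1 probe. Its normalised values were -0.21 and -0.15 at passage 7, against 1.26 and 1.12 at passage 2, from processed signals of 830 and 363 at passage 7 and 2448 and 3048 at passage 2. The passages were separate and the arrays of each passage close together. Fmod fell by 1.37 ± 0.18 on the log2 scale (95% interval -1.84 to -0.90; adjusted p = 0.012, limma). The adjusted p was 0.067 with passage 7 replicate 1 left out and 0.064 with passage 7 replicate 2 left out.

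Osteomodulin, a class II keratan sulfate proteoglycan first known from bone, was dimmer. Its processed signals were 217 and 76.5 at passage 7, against 529 and 594 at passage 2. The normalised values were -2.15 and -2.40 at passage 7 and -0.95 and -1.24 at passage 2. Both passage 7 arrays were lower than both passage 2 arrays. Omd fell by 1.18 ± 0.21 on the log2 scale (95% interval -1.73 to -0.62; adjusted p = 0.023, limma). This call depended on the settings, being kept in 9 of 16 alternatives, with changes from -1.35 to -0.14. With passage 7 replicate 1 left out its adjusted p was 0.077, and with replicate 2 left out 0.14.

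PRELP, a class II member with a basic amino-terminal stretch that binds heparan sulfate, was the member called higher. Its processed signals were 91.0 and 41.8 at passage 7, against 44.2 and 68.3 at passage 2, and so overlapped before scaling. The normalised values were -3.41 and -3.27 at passage 7, against -4.54 and -4.36 at passage 2, which no longer overlapped. Prelp rose by 1.11 ± 0.19 on the log2 scale (95% interval 0.62 to 1.6; adjusted p = 0.020, limma). Its change was 0.17 unscaled, 0.96 after quantile normalisation and 0.94 after median scaling, and the authors' value table gave 0.54. None of these 4 values reached 2-fold, and the call was kept in 6 of 16 alternatives. The adjusted p was 0.089 with passage 7 replicate 1 left out and 0.14 with replicate 2 left out.

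**Figure D2:**
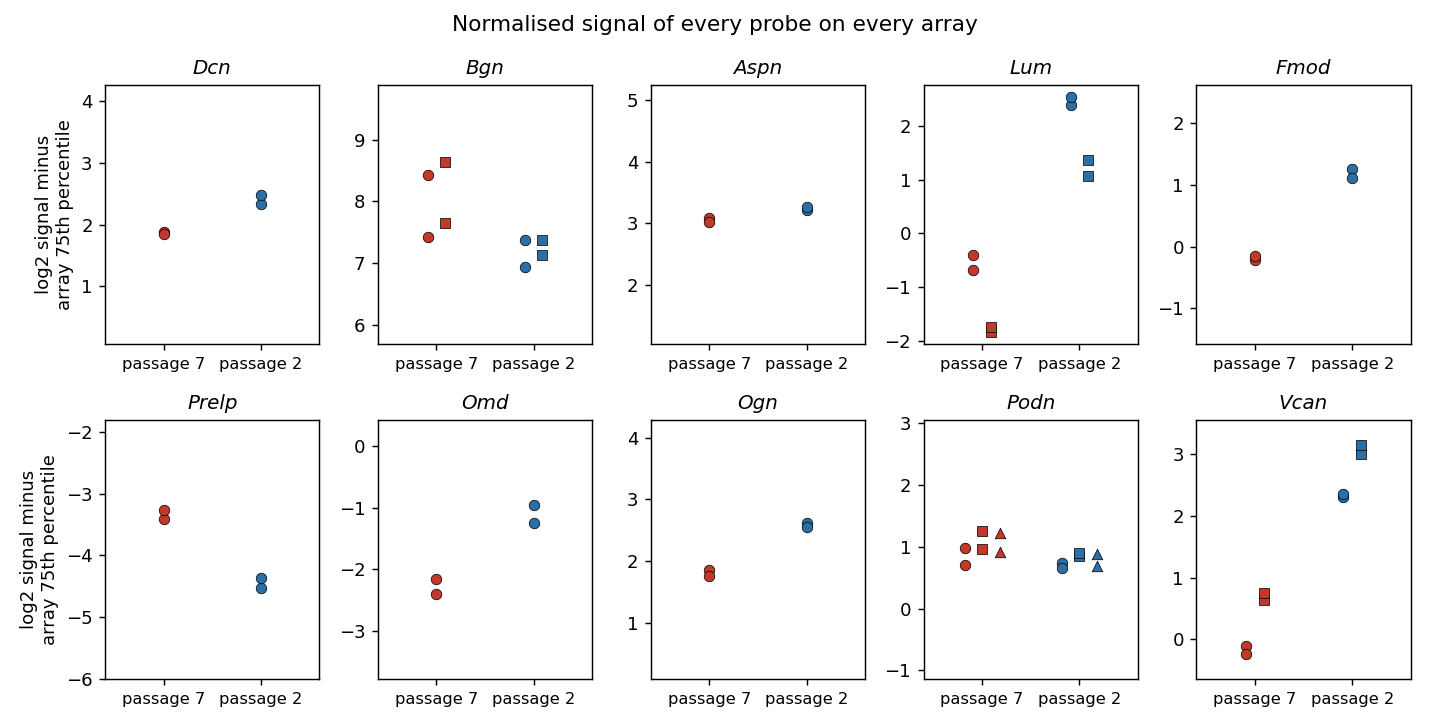
Normalised signal (log2, relative to the 75th percentile of each array) of every probe of the 10 genes on each of the 4 arrays, passage 7 in red and passage 2 in blue, with 1 marker shape per probe. The vertical axes differ between panels in position. Lum and Vcan show the widest gaps between the passages, with both probes of each moving alike, and for Bgn the 2 passage 7 arrays lie about as far apart as the passages.

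Osteoglycin, a class III member, had normalised values of 1.85 and 1.76 at passage 7, against 2.62 and 2.55 at passage 2. The arrays within each passage nearly coincided. The change was -0.78 ± 0.18 (95% interval -1.24 to -0.32; adjusted p = 0.038, limma), which is 1.72-fold and under the 2-fold minimum, so Ogn was not called. Decorin, a class I dermatan sulfate proteoglycan that binds collagen I and TGF-beta, had normalised values of 1.88 and 1.85 at passage 7, against 2.33 and 2.48 at passage 2. The passages did not overlap, and the change of -0.54 ± 0.18 (95% interval -1.01 to -0.07) did not pass (adjusted p = 0.090, limma). Over 16 alternatives its change ran from -0.92 to -0.46, and none of them called it. Its adjusted p in limma was 0.016 by the authors' value table and 0.0498 after quantile normalisation. With another variance model it was 0.039. In these settings only the 2-fold minimum withheld a call.

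Asporin, a class I member named for its run of aspartate residues, had normalised values of 3.08 and 3.02 at passage 7, against 3.21 and 3.27 at passage 2. Its change of -0.19 ± 0.17 (95% interval -0.64 to 0.27; adjusted p = 0.46, limma) was close to the error. Podocan, a class V member, had normalised values of 0.97 and 1.26 at passage 7, against 0.85 and 0.91 at passage 2, and a change of 0.24 ± 0.20 (95% interval -0.28 to 0.76; adjusted p = 0.41, limma). The other 2 Podn probes gave changes of 0.14 and 0.29, and at the first of them the passages overlapped. The intervals of Aspn and Podn leave out a 2-fold change in either direction.

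Biglycan, a class I member with chondroitin or dermatan sulfate chains, was read near the top of the scale. Its brightest probe had processed signals of 193017 and 160299 at passage 7, against 168974 and 197163 at passage 2. The highest of the 4 was only 1.23 times the lowest, although the arrays' 75th percentiles ranged from 402 to 1404. Normalised, the values were 7.65 and 8.64 at passage 7, against 7.37 and 7.13 at passage 2. The change was 0.89 ± 0.38 (95% interval -0.10 to 1.88; adjusted p = 0.15, limma), and the other probe gave 0.77. Without scaling the change was -0.05 and after quantile normalisation 0.03, while the authors' value table gave 0.22. Both probes were read at the scanner's low gain on all 4 arrays, and none was marked saturated. The change was 1.39 with passage 7 replicate 1 left out and 0.40 with replicate 2 left out, so its size rests on the scaling and on single arrays.

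**Figure D3:**
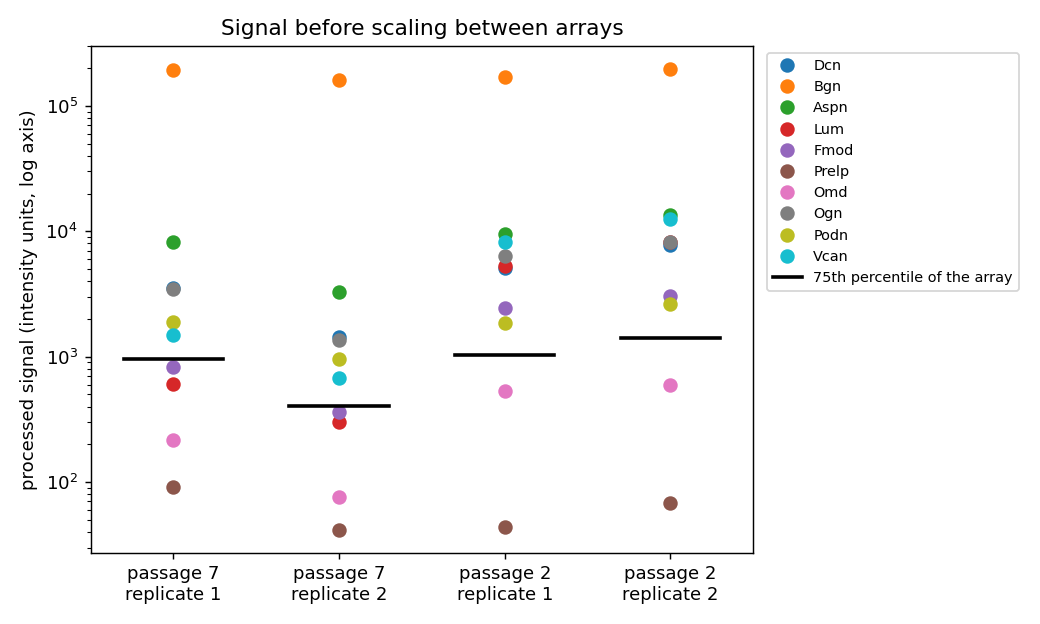
Processed signal (log axis, no scaling between arrays) of the brightest probe of each of the 10 genes on the 4 arrays, with a black bar at each array's 75th percentile. The bars stand at 964 and 402 on the passage 7 arrays and at 1024 and 1404 on the passage 2 arrays, while the Bgn signal stays between 160299 and 197163.

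Each of the 15 probes was also tested on its own, over all 30868 probes that passed the filter. Of the 15, 6 fell and 1 rose, and 17.2% of all probes were called. The 6 were both probes of Lum, both of Vcan and the single probes of Fmod and Omd, and the 1 was the probe of Prelp. Both probes of Bgn and the 3 of Podn were not called, so probes of a gene did not disagree in call.

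Ratios between members within an array do not change when an array is scaled by 1 factor, but they can change with quantile normalisation or another background correction. They are given relative to the passage 2 mean, on the log2 scale, and 5 pairs were formed from members that are neighbours. Lum over Dcn was -2.61 and -2.31 at passage 7, against -0.0024 and 0.0024 at passage 2. Lum and Dcn, which lie next to each other on chromosome 10, thus changed unequally, by -2.46. Prelp over Fmod was 2.45 and 2.52 at passage 7, against -0.16 and 0.16 at passage 2, a change of 2.48. Omd over Aspn changed by -0.99, Ogn over Aspn by -0.59 and Omd over Ogn by -0.40. The authors' value table gave -2.33 for Lum over Dcn, 2.16 for Prelp over Fmod and -0.19 for Omd over Ogn. With normexp Lum over Dcn was -1.86 and Prelp over Fmod 3.14, while Omd over Aspn turned to 0.37 and Omd over Ogn to 0.93. In each of the 5 pairs both passage 7 arrays lay on one side of both passage 2 arrays, but with 2 arrays against 2 the exact permutation test cannot go below p = 0.333.

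The genomic neighbours, the nearest 2 protein-coding genes on each side in RefSeq order, numbered 24, of which 20 were tested, 2 rose and 3 fell. Among all genes 9.99% rose and 9.42% fell. On chromosome 1, Optc (opticin, a class III relative) lies beside Prelp and rose by 1.15 ± 0.27 (adjusted p = 0.043, limma). Chit1 (chitotriosidase), beyond Fmod, rose by 1.85 ± 0.34 (adjusted p = 0.025, limma) and only 1 of the 2 passage 2 arrays read it well above background. The authors' value table gave 0.63 for Optc and 0.34 for Chit1. Over the alternatives Edil3 ran from -1.49 to 1.11 and Hapln1 from -1.62 to -0.02. On chromosome 13, Cenpp, a centromere protein gene beyond Aspn, fell by 2.11 (adjusted p = 0.0066, limma). Also on chromosome 13, beside Vcan, Hapln1 (a link protein that fastens hyalectans to hyaluronan) fell by 1.32 ± 0.32 (adjusted p = 0.045, limma) and Edil3 (an integrin-binding matrix protein) fell by 1.26 ± 0.21 (adjusted p = 0.019, limma). Xrcc4, on the other side of Vcan, changed by -0.24 and was not called. On chromosome 10, Kera (keratocan) and Epyc (epiphycan), relatives beside Lum, were not well above background at passage 7 and were not called (adjusted p = 0.12 and 0.29, limma). Kera was called lower after quantile normalisation, at -1.37 (adjusted p = 0.042, limma), and after median scaling, at -1.25 (adjusted p = 0.014, limma). Over the alternatives Kera ran from -1.64 to 1.78. None of the neighbours of Podn on chromosome 4 or Bgn on chromosome X was called. Near Bgn, Dusp9 changed by -0.94 (adjusted p = 0.032, limma), under the 2-fold minimum, and Atp2b3 by 0.97 (adjusted p = 0.054, limma). After median scaling Dusp9 was called lower, at -1.11 (adjusted p = 0.014, limma). With either passage 7 array left out, Cenpp kept its call and Optc, Chit1, Edil3 and Hapln1 did not.

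**Figure D4:**
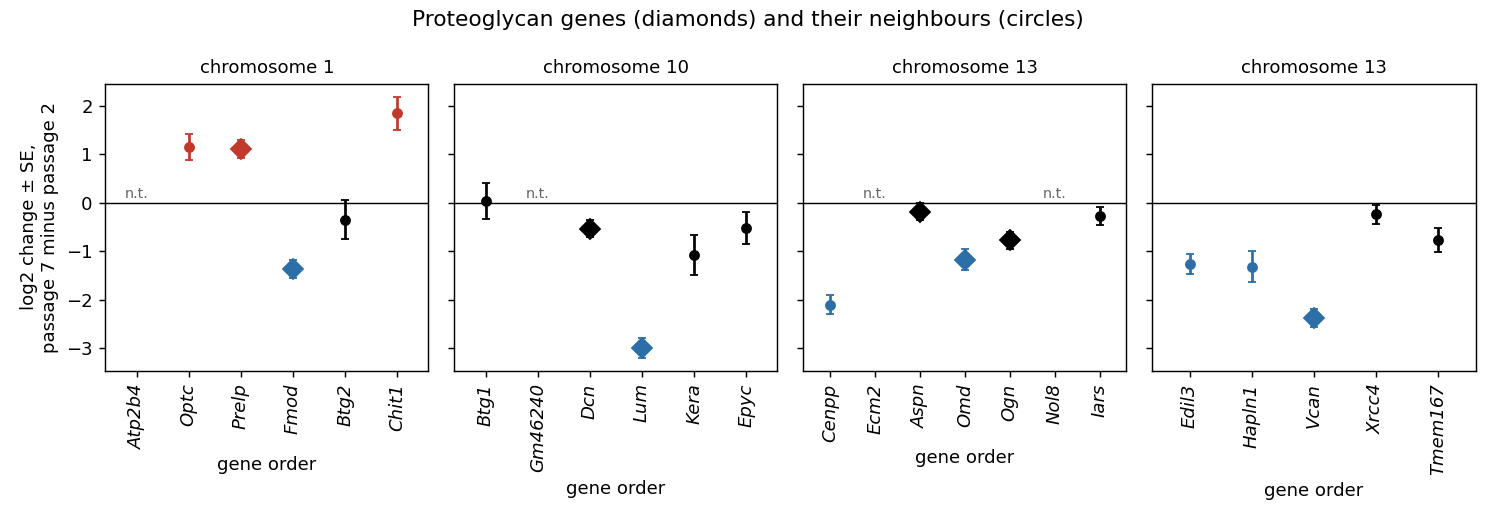
Log2 change, passage 7 minus passage 2, with its SE, of members (diamonds) and neighbouring genes (circles) in gene order around the members of chromosomes 1, 10 and 13. Red marks genes called higher, blue genes called lower, black genes not called and n.t. genes not tested. Prelp at 1.11 stands beside Fmod at -1.37, and Dcn at -0.54 beside Lum at -3.0.

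The genes that work with these proteoglycans were taken from 7 lists, with 131 genes tested. Of these 14 rose (10.7%) and 26 fell (19.8%), beside 9.99% and 9.42% of all genes. Among 6 other small leucine-rich repeat genes tested, 1 rose (Optc) and 0 fell, and the list median was -0.63. Neither the calls nor the sign of the median held under all settings. After quantile normalisation 0 rose and 1 fell, after median scaling 0 rose and 2 fell, and the median was 0.30 with no background correction and 1.68 with normexp. Tsku changed by -0.36, Podnl1 by -0.88 and Chad, which was not well above background at passage 7, by -0.73, and none of these passed. At an unadjusted p under 0.05 in limma, 1 of the 6 was higher and 1 lower, beside 5763 of all 13847 genes. Ecm2 and Nyx were below background.

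Of 18 other hyalectans and hyaluronan partners, 6 fell and 1 rose, with a list median of 0.11, which was -0.09 after quantile normalisation and -0.06 after median scaling. Acan, the cartilage hyalectan aggrecan, was -6.49 and -5.73 at passage 7, against -1.67 and -1.87 at passage 2, and fell by 4.34 ± 0.31 (adjusted p = 0.005, limma). Only 1 of the 2 passage 7 arrays read it well above background, as for Hmmr, a hyaluronan-binding protein of the mitotic spindle, which fell by 3.68 ± 0.56 (adjusted p = 0.016, limma). Tnfaip6, a hyaluronan-binding protein of inflamed matrix, fell by 2.31 ± 0.26 (adjusted p = 0.010, limma). Bcan, the brain hyalectan brevican, was -3.20 and -3.38 at passage 7, against -5.68 and -5.79 at passage 2. Bcan rose by 2.45 ± 0.18 (adjusted p = 0.005, limma). These 4 genes kept their calls with either passage 7 array left out, but sizes moved with the settings. The authors' value table gave 1.20 for Bcan, -3.03 for Acan and -2.54 for Hmmr, and over all alternatives Acan ran from -4.72 to -0.55 and Hmmr from -4.47 to -0.03.

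Of 22 cell-surface and basement membrane proteoglycans, 6 fell and 1 rose, with a list median of -0.31. With passage 7 replicate 1 left out 2 fell, and with replicate 2 left out 3 fell. Col18a1, whose core protein releases endostatin, fell by 2.71 ± 0.18 (adjusted p = 0.005, limma). Tgfbr3 (betaglycan, a TGF-beta co-receptor) fell by 2.16 ± 0.18 (adjusted p = 0.006, limma) and the glypican Gpc3 fell by 1.84 ± 0.33 (adjusted p = 0.022, limma). Hspg2 (perlecan) rose by 1.19 ± 0.23 (adjusted p = 0.027, limma). Gpc3 and Hspg2 lost their calls with either passage 7 array left out. After quantile normalisation, and likewise by the authors' value table, 0 genes of this list were called higher.

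Of 29 genes of chondroitin, dermatan and keratan sulfate synthesis, 4 rose and 3 fell, with a list median of 0.12. The balance turned under other scalings, with 3 rises and 5 falls after quantile normalisation, 2 and 4 after median scaling, and 1 and 4 by the authors' value table. Slc35d1, the endoplasmic reticulum carrier of UDP-sugars for chondroitin sulfate, was 1.20 and 1.11 at passage 7, against -1.83 and -1.53 at passage 2. It rose by 2.83 ± 0.20 (adjusted p = 0.005, limma). Chst12, a chondroitin sulfotransferase, rose by 1.24 ± 0.21 (adjusted p = 0.020, limma) and B4galt7, which builds the linkage to the core protein, by 1.15 ± 0.22 (adjusted p = 0.025, limma). Chsy3, a chondroitin chain polymerase, fell by 1.65 ± 0.21 (adjusted p = 0.012, limma), and Dsel, related to dermatan sulfate epimerase, fell by 1.14 ± 0.25 (adjusted p = 0.036, limma). B3gnt7, which extends keratan sulfate, was not well above background at passage 7 and was at least 1.59-fold lower there with the scaling used here. The authors' value table gave -0.51 for B3gnt7, which was not called there. Over the 15 alternatives in which it was tested, B3gnt7 ran from -2.81 to 1.70, with 11 calls. Over the alternatives Chsy3 ran from -1.82 to -0.33. Chst12, B4galt7 and Dsel lost their calls with either passage 7 array left out, and Chsy3 without the passage 7 replicate 2 array.

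Of 17 genes of proteoglycan cleavage, 3 rose and 2 fell, with a list median of 0.50. The median depended on the processing, at -0.06 after quantile normalisation, 0.07 with normexp and 0.06 by the authors' value table. Adamts5, an aggrecanase that also cuts versican, was -0.49 and -0.92 at passage 7, against -3.02 and -2.87 at passage 2. It rose by 2.24 ± 0.23 (adjusted p = 0.008, limma). The stromelysin Mmp3 rose by 1.33 ± 0.20 (adjusted p = 0.016, limma) and the versican-cutting Adamts1 by 1.04 ± 0.22 (adjusted p = 0.033, limma). Adamts8 fell by 1.35 ± 0.23 (adjusted p = 0.021, limma) and the collagenase Mmp13 fell by 1.15 ± 0.21 (adjusted p = 0.023, limma). Adamts5 kept its call with either passage 7 array left out, while Mmp3, Adamts1 and Mmp13 did not, and Adamts8 lost it without the passage 7 replicate 1 array. Over the alternatives Adamts8 ran from -1.58 to 1.18.

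Of 20 collagen fibril partners, 6 fell and 0 rose, with a list median of -0.68. Elastin (Eln) fell by 3.62 ± 0.19 (adjusted p = 0.005, limma), Col14a1, a collagen on fibril surfaces, fell by 3.19 ± 0.28 (adjusted p = 0.006, limma) and the cartilage collagen Col2a1 fell by 2.91 ± 0.18 (adjusted p = 0.005, limma). The main fibrillar collagens of fibroblasts were not called with the scaling used here, which did not hold for Col1a1 and Col1a2 in every alternative. Col1a1 changed by 1.04 (adjusted p = 0.10, limma), Col1a2 by -0.73 (adjusted p = 0.060, limma) and Col3a1 by -0.06. Col1a2 was called lower after quantile normalisation, at -1.30 (adjusted p = 0.021, limma). By the authors' value table it was also called lower, at -1.30 (adjusted p = 0.0042, limma). Over 16 alternatives Col1a2 ran from -1.41 to -0.61 with 2 calls, and Col1a1 from 0.41 to 1.51 with 1 call. Col3a1 ran from -0.65 to 0.13 with 0 calls. At an unadjusted p under 0.05, 10 genes of the list were lower and 3 higher. Of all 13847 genes tested, 5763 had such a p, in either direction. Over the alternatives Eln ran from -3.79 to -2.06 and Col14a1 from -3.52 to -1.86.

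Of 19 receptors and growth factors bound by these proteoglycans, 4 rose and 3 fell, with a list median of 0.13. After quantile normalisation, and by the authors' value table, 2 rose and 4 fell. Bmp4, a bone morphogenetic protein, rose by 1.41 ± 0.21 (adjusted p = 0.016, limma), the matricellular Ccn2 by 1.24 ± 0.19 (adjusted p = 0.016, limma) and the ATP-gated channel P2rx4 by 1.22 ± 0.23 (adjusted p = 0.026, limma). Bmp2 fell by 1.87 ± 0.18 (adjusted p = 0.007, limma), the TGF-beta receptor Tgfbr1 fell by 1.53 ± 0.26 (adjusted p = 0.020, limma) and the receptor Met fell by 1.31 ± 0.22 (adjusted p = 0.020, limma). Of these 6, Bmp2 kept its call with either passage 7 array left out, and Bmp4 lost it without the passage 7 replicate 2 array. Ccn2, P2rx4, Tgfbr1 and Met lost theirs with either one left out. Over the alternatives Bmp2 ran from -2.20 to 0.31.

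**Figure D5:**
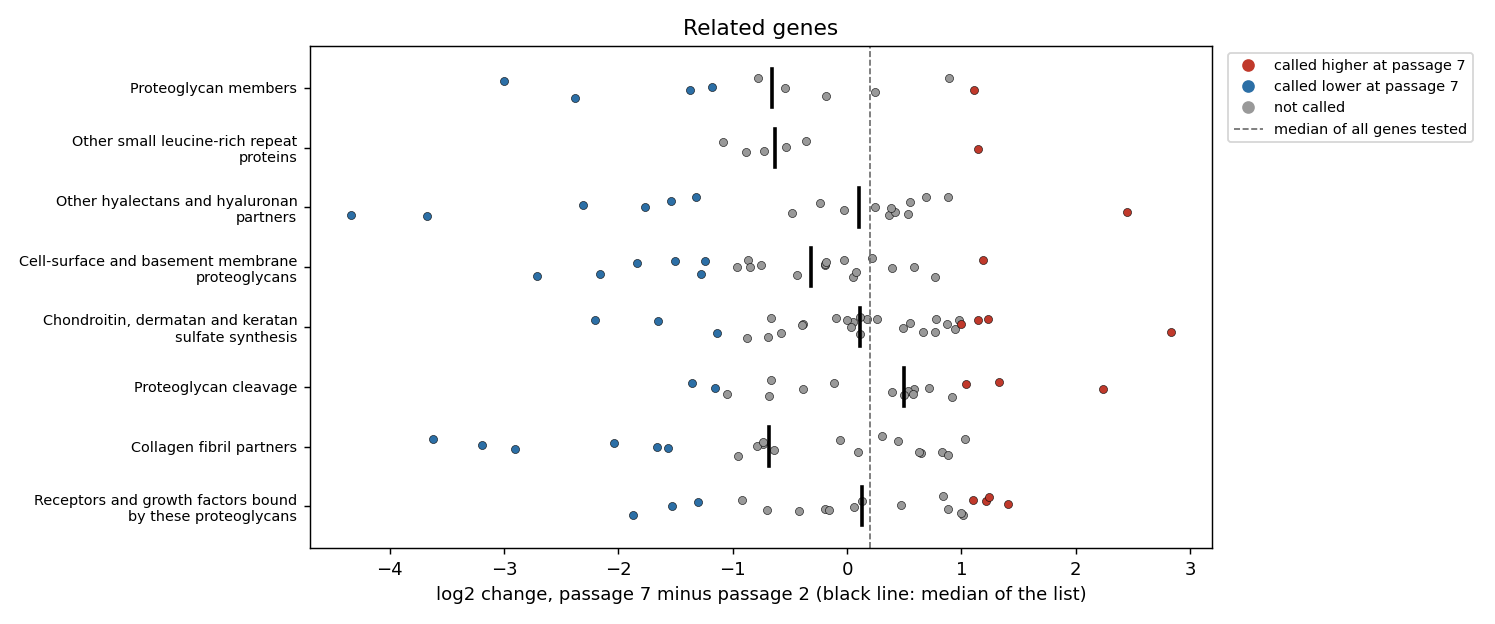
Log2 change, passage 7 minus passage 2, of each gene of the 10 members and of the 7 related lists, with a black line at the list median and a dashed line at the median of all genes tested, 0.20. Red marks genes called higher and blue genes called lower. With this scaling the medians are -0.68 for the collagen fibril partners, -0.66 for the members and 0.50 for proteoglycan cleavage; after quantile normalisation that of proteoglycan cleavage was -0.06.

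Several of the falling partners, such as Acan, Col2a1 and Hapln1, are also chondrocyte markers. Of 9 chondrocyte markers tested, 7 fell and 0 rose in limma (0 higher and 8 lower at an unadjusted p under 0.05, beside 5763 of all 13847 genes). With no background correction 3 of them fell, with normexp and flagged backgrounds replaced 2, and with normexp alone 0. Their summed signal, in multiples of the array's 75th percentile, was 5.59 and 5.41 at passage 7, against 37.0 and 35.7 at passage 2. Most of this sum was Col2a1 on every array. The normalised values of Col2a1 were 2.15 and 2.04 at passage 7, against 5.02 and 4.99 at passage 2. With the 75th percentile scaling, Col9a1 was at least 10.2-fold lower and Matn1 at least 1.71-fold lower at passage 7, and Sox9 fell by 1.87. The authors' value table gave -2.27 for Col9a1 and -0.72 for Matn1. Over the alternatives their highest changes were 0.40 and 1.54. Of all genes tested, 9.42% fell and 9.99% rose. Of 6 macrophage markers, 3 fell, with a summed signal of 1.86 and 2.18 at passage 7, against 4.23 and 3.37 at passage 2. Of 5 smooth muscle markers, 3 rose and 1 fell, with a summed signal of 44.7 and 41.4 at passage 7, against 24.4 and 21.8 at passage 2. None of the 5 rose after median scaling, by the authors' value table, with no filter on dim probes, with the replicate block or with either passage 7 array left out. The fibroblast markers summed to 397 and 548 at passage 7, against 320 and 312 at passage 2, although 0 of the 10 rose. Such a sum weighs bright genes most and depends on the scaling. After quantile normalisation Col1a1 changed by 0.41, Fn1 by 0.09 and Vim by 0.26, while Col1a2 changed by -1.30 and Col3a1 by -0.65. The part of these other cells in the changes of the proteoglycan genes was not tested. Of the 6 osteoblast markers, 2 fell. The 5 tendon markers had 1 rise and 2 falls, the 6 skeletal muscle markers 1 and 1, the 6 endothelial markers 1 and 0, the 7 epithelial markers 1 and 3, the 5 neural markers 1 and 0 and the 3 adipocyte markers 1 and 1. These small counts stand beside the same shares of all genes, and no shift of a cell type is read from them. They also moved with the settings, and with normexp 0 markers of any list were called.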

How the data were processed

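Per the labels' protocols, Cy3-labelled cRNA was made from 0.5 micrograms of total RNA and hybridised to Agilent arrays. The deposited spot files, which Agilent Feature Extraction made per the file headers (version 10.5.1.1), give each spot's processed signal intensity (background-subtracted), its median and background intensity and flags for background and outliers. The authors' value table is on a log2 scale, with a centring that the sources used here do not give. The submitters' processing notes name limma, without a version. The table's columns had medians of 6.24 and 6.14 at passage 7, against 6.30 and 6.30 at passage 2, and each was closest to the median intensity (log2) of its own array.

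Of 43553 probes, 31850 carried a RefSeq accession and 31089 matched a gene symbol in RefSeq (GRCm38.p6). The processed signal was scaled to the array's 75th percentile and put on the log2 scale. Spots marked as outliers (14 to 61 per array) were left out, spots of a probe were averaged, and a gene was read at its brightest probe. Genes that both arrays of at least 1 passage read well above background were tested with limma (version 3.58.1, R 4.3.3; lmFit, eBayes, two-sided, Benjamini-Hochberg). Tables were made in Python 3.11.15 with pandas 2.3.3. The fit was first tested on simulated data. A gene that neither array of a passage read well above background has a bound, "at least N-fold". It sets the brighter passage's mean against a floor per array, which is the dimmest detected signal or, if higher, the probe's own. Each bound holds for this processing only.

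The members and lists were chosen with earlier results of these data known. All members are named, and so are the other family members with a named probe. The called genomic neighbours are named, while most of those not called are not named in the text. From each of the other lists, up to 3 called rises and 3 called falls are named (bounds for genes dim in a passage). Fibroblast and chondrocyte markers were named after their values were seen. Alternatives were other background corrections, scalings, filters, probe choices and variance models, the replicate number as a block, and each array left out. Other thresholds were applied only to the counts of genes called and are not among the 16 alternatives given for single genes. The normexp correction used the median signal with an offset of 50. Deviations of same-numbered arrays correlated at -0.17, so the numbers were not taken to pair the arrays. The number of arrays limits the precision.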

Additional observations from a re-analysis of the deposited data

How the results depend on the processing

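Of the 10 members, Lum and Vcan kept direction and call in 15 of 16 alternatives, Fmod in 12, Omd in 9 and Prelp in 6, and no member's call reversed. The 2689 genes called (1384 higher, 1305 lower), 5 members, 40 related genes and 7 member probes moved as follows. With normexp on the median signal, limma called 0 genes (0 higher, 0 lower), 0 members, 0 related genes and 0 member probes, while 664 genes, 3 members, 13 related genes and 4 member probes had an unadjusted p under 0.05. With flagged backgrounds replaced it called 1200 genes (721 higher, 479 lower), 3 members and 17 related genes. Without background correction 741 genes were lower and 3 members called. The authors' value table gave 732 genes higher. With no filter on dim probes there were 1771 genes (897 higher), 3 members, 25 related genes and 4 member probes. At an adjusted p under 0.01 there were 678 genes (273 higher, 405 lower), 2 members and 13 related genes. With the replicate block there were 1173 genes (522 higher, 651 lower), 2 members, 22 related genes and 0 member probes (8 at an unadjusted p under 0.05); the crossed pairing, added after seeing the data, gave 3066 genes and 5 members. Leaving out 1 array gave 1152 (without passage 7 replicate 2) to 3458 genes (without passage 2 replicate 1), 464 to 2070 higher, 682 to 1388 lower, 2 to 5 members, 19 to 42 related genes and 0 (without passage 2 replicate 2; 8 at an unadjusted p under 0.05) to 5 member probes. A passage left with 1 array is assumed to vary like the other. The share of called genes that were higher was 51.5%. It was 42.2% after quantile normalisation and 41.2% after median scaling, while the authors' value table gave 35.3%. The causes of these shifts were not tested. All member probes were well above background on all 4 arrays and none was marked saturated. The brightest Bgn probe nevertheless read between 160299 and 197163 on every array, and the Prelp probe between 41.8 and 91.0. Whether dim or bright signal limits single members was not tested.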
